A study of Mus musculus with 24 samples.

Results

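The genes described here are 35 genes of the ATF4 arm of the integrated stress response, taken by name from the 21965 genes counted in mouse spinal cord: ATF4 itself with its partner and downstream transcription factors (7 genes), stress kinases and effectors (6), enzymes of amino acid and one-carbon metabolism (12), amino acid carriers (6), and secreted factors with 1 receptor (4). The rule names them by function and uses no measured value, but it was set with earlier results of these data known. The study itself names Chac1, Bcat1 and Aldh18a1 among the genes raised in OLs on dpi 2 (2 days post-injury). Shares of called members below thus describe a list that was not chosen blind to the data. All 35 members were among the 17167 genes whose counts over all libraries came to 10 or more, so none was lost to the filter on low counts. Members were followed in OL-Ribotag mice, in which a tamoxifen-activated CreERT2 driven in the oligodendrocyte lineage switches on a hemagglutinin (HA) tag on the ribosomal protein RPL22, chiefly in mature oligodendrocytes (OLs). Ribosomes pulled down with anti-HA antibody gave the OL translatome (OL libraries), and a share of the same lysate gave total spinal cord RNA (total libraries). Female mice, 10 to 12 weeks old in the labels, received a 50 kdyn contusive spinal cord injury (SCI) at T9 and were studied 2, 10 and 42 days later (dpi, days post-injury). The controls were naive mice of the same genotype without a sham operation, and each of the 4 time groups had 3 pools of 2 cords, each pool giving 1 OL and 1 total library (24 libraries in 8 groups). Control and dpi 42 cords were, per the study, collected on the same day and at the same age. Naive mice were thus older, and longer after tamoxifen, than dpi 2 and dpi 10 mice, and the part of this was not tested. This Cre is, per the study, also active in Schwann cells, which short pieces of spinal nerve root can bring into the tissue.

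In the integrated stress response, kinases that sense protein folding stress, amino acid shortage, viral RNA or heme shortage phosphorylate the initiation factor eIF2. General translation initiation then falls while the Atf4 mRNA is translated better because of its upstream reading frames. ATF4 pairs with C/EBP and other bZIP proteins on composite C/EBP-ATF elements and raises genes for amino acid uptake, asparagine, serine and proline synthesis and glutathione handling, together with CHOP (the product of Ddit3) and the feedback phosphatase subunit GADD34 (Ppp1r15a). In oligodendrocytes the pathway is known from work on endoplasmic reticulum stress during myelin production and demyelination.

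The composite element was looked for in the promoters, because it is the site through which ATF4 is known to act on its targets. RefSeq promoter windows of build GRCm38.p6, from 250 bases before to 50 bases after the transcription start, were at hand for 31 of the 35 members, while Cth, Aldh1l2, Slc7a5 and Slc7a3 were not matched. The letters TGATGNAA, with any base at N and read on both strands, were present in a window of 9 of these 31 genes (29.0%) and of 1219 of the 27025 genes with a window (4.51%). The cyclic AMP response element TGACGTCA, searched the same way, was present in 1 of the 31 members (3.23%), Ppp1r15a, and in 2.03% of all genes. Genes with the TGATGNAA letters were Atf3, Nupr1, Trib3, Chac1, Asns, Pycr1, Slc7a11, Vldlr and Fgf21. Of the members with a window, it was present in 6 of the 16 that rose in OLs on dpi 2 and in 3 of the 15 others. A match is a description of letters and not a site that was measured, and no match says only that these letters are not in the window. The members were named as genes of the ATF4 pathway, so a share above that of all genes could be foreseen and is no separate evidence. The stretches below run 5′ to 3′ on the strand of the gene, end before the transcription start, and have the matched letters in capitals (TTGCATCA is the element read on the other strand). They are shown for the members with a match upstream of the start, to let the shared core be seen beside the flanks that differ. The match of Trib3 lies downstream of its start.
Atf3 (chr1:191183406-191183473, minus strand): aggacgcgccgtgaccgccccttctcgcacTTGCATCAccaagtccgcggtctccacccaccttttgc
Chac1 (chr2:119351019-119351086, plus strand): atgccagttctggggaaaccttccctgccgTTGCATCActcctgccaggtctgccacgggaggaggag
Asns (chr6:7693210-7693262, minus strand): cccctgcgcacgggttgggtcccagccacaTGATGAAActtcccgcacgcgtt
Nupr1 (chr7:126625543-126625610, minus strand): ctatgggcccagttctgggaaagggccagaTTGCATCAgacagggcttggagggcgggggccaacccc
Pycr1 (chr11:120643814-120643881, minus strand): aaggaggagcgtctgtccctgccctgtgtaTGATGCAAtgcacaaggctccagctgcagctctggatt
Slc7a11 (chr3:50443623-50443709, minus strand): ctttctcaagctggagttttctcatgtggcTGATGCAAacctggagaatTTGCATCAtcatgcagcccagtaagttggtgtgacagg
Vldlr (chr19:27216790-27216857, plus strand): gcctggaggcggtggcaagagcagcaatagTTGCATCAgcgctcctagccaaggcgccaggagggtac
Fgf21 (chr7:45615592-45615659, minus strand): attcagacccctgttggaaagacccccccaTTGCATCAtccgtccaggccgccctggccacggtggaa
The 2 matches of Slc7a11 lie on opposite strands, and each of the other stretches holds 1 match.

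Counts on genes were 25840127 to 32987841 per library, so that 3 counts, the limit that a count of 0 allows, correspond to 0.0840 to 0.127 CPM. Levels are CPM, that is counts scaled to a common library size, with sizes adjusted by TMM factors, and the 3 values of a group are always listed in the order of pools 1, 2 and 3. The 7 OL markers used to check the label (Mbp, Mag, Mog, Mobp, Cldn11, Opalin and Ermn) were all enriched in naive OL over total RNA. For 2 libraries of dpi 42 the title names the other kind of RNA than the description, and groups here follow the description, which alone matches the count table. By that assignment the OL markers summed to 73242 to 95409 CPM in the OL libraries of dpi 42 and to 15319 to 16819 CPM in its total libraries. Naive OL library 3 stood apart from the other naive OL libraries. Its summed level of 5 Schwann cell markers was 636 CPM, against 1.89 and 1.57 in libraries 1 and 2, and its summed level of 5 astrocyte markers was 8153 CPM, against 1347 and 1201. The astrocyte sum was uneven among later OL libraries too, at 2521, 917 and 7598 CPM on dpi 2, 1971, 6163 and 2453 on dpi 10, then 12052, 10068 and 1859 on dpi 42. OL library 3 of dpi 2 was thus near naive OL library 3. After SCI the Schwann cell markers summed to 226 to 688 CPM in OL libraries on dpi 2, 875 to 1547 on dpi 10 and 1207 to 1404 on dpi 42, and Gdnf of this list had no count in OL libraries of the naive group and of dpi 42. The 7 microglia and macrophage markers, none of which was at 0 in any group, summed to 4.95 to 6.72 CPM in naive OL, 61.0 to 78.6 on dpi 2, 193 to 217 on dpi 10 and 121 to 202 on dpi 42, and all 7 were called higher at each time. The 3 fibroblast markers were also called higher in OLs at each time, with sums of at most 6.35 CPM in naive OL, 32.6 to 42.8 on dpi 2, 178 to 190 on dpi 10 and 36.6 to 62.9 on dpi 42. In total RNA the microglia and macrophage list summed to 87.2 to 107 CPM in naive cord and to 985 to 1260, 2959 to 4092 and 1646 to 2549 CPM on dpi 2, 10 and 42. Pool 2 of dpi 2 carried counts of Y-linked genes although the mice are labelled female. What these cells and this pool contribute to the changes of the members was not tested. Many, though not all, of the calls lost or gained without naive OL library 3 or without that pool are named beside the members.

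On dpi 2 all 7 transcription factors of the group rose in the OL translatome, together with 3 effectors, 5 enzymes, the carrier Slc7a1 and Gdf15, while the serine synthesis enzymes Phgdh and Psat1 and the glycine carrier Slc6a9 fell. A change was called when q, the p-value of edgeR's quasi-likelihood test adjusted by the Benjamini-Hochberg method over all tested genes, was under 0.05 and the log2 fold change was past 0.5. By this rule 17 of 35 members (48.6%) were higher in OL libraries on dpi 2 than in naive OL libraries, against 15.9% of all tested genes, and 3 of 35 (8.57%) were lower, against 16.4%. The median log2 change was 0.36 over the members and 0.00 over all genes. On dpi 10 the counts were 7 higher (all genes 8.55%) and 4 lower (all genes 5.55%), with a median of 0.10. On dpi 42 they were 9 higher (all genes 13.7%) and 4 lower (all genes 13%), with a median of 0.16. With library sizes alone in place of TMM, the dpi 10 counts were 10 higher and 3 lower. Each of the 17 members higher on any day was higher on dpi 2. Without naive OL library 3 the members called on dpi 2, in either direction, numbered 25 in place of 20, Slc7a5, Slc7a11, Slc3a2 and Sesn2 being added as higher, Eif2ak3 and Vldlr as lower, and Cebpg being lost. Among the 17 members that rose, OL library 3 of dpi 2 held the lowest dpi 2 level for 13, library 2 for 3 and library 1 for 1. Bulk libraries cannot tell fewer cells of a type from less RNA per cell, so every change below is one of the pooled tissue.

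**Figure D1:**
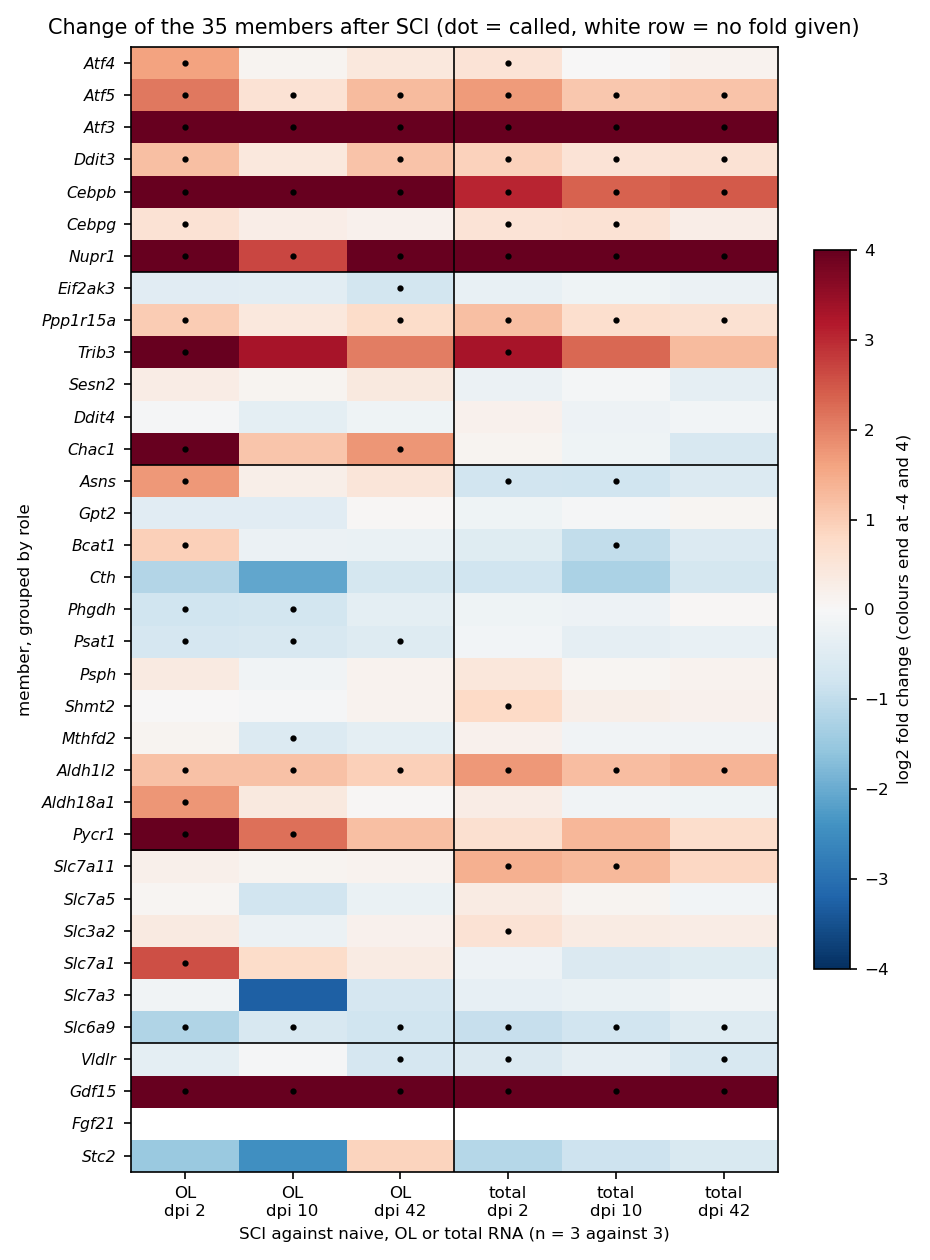
Heat map of the log2 fold change of each member (rows, grouped by role with black lines in the order transcription factors, kinases and effectors, enzymes, carriers, secreted factors and receptor) in OL and total RNA on dpi 2, 10 and 42 against naive (columns, n = 3 libraries against 3). A black dot marks a called change, colours end at -4 and 4, the row of Fgf21 is left white because its OL libraries held no count, and dots are densest among transcription factors and in the OL column of dpi 2.

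All 7 transcription factors rose in OLs on dpi 2, 4 of them stayed higher on dpi 10 and 5 on dpi 42. Atf4, the central activator of the pathway, had 88.9, 94.1 and 72.3 CPM in naive OL libraries and 288, 293 and 193 CPM on dpi 2. Its later OL levels were 88.97, 83.4 and 103 CPM on dpi 10, then 113, 119.6 and 113 CPM on dpi 42. The dpi 2 libraries lay above every other OL library, while those of dpi 10 overlapped the naive range. This is a log2 change of 1.60 ± 0.13, q = 6.78e-09 on dpi 2 (errors of log2 values are SE), and of 0.11 ± 0.13, q = 0.64 on dpi 10 and 0.44 ± 0.13, q = 0.0118 on dpi 42. From dpi 2 to dpi 10 Atf4 fell (-1.49 ± 0.13, q = 6.85e-08). In total RNA it had 107, 110.0 and 100.2 CPM in naive cord, 160.0, 161 and 139 on dpi 2, 104, 106 and 114 on dpi 10, then 116, 119 and 113 on dpi 42. The rise on dpi 2 was thus present in total RNA too, at 0.54 ± 0.13, q = 0.00204, and smaller.

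Ddit3 encodes CHOP, a C/EBP family factor that is known for promoting cell death under prolonged stress. Its OL levels were 23.7, 19.5 and 20.4 CPM in naive cord, 55.1, 57.7 and 33.6 on dpi 2, 26.99, 30.1 and 27.7 on dpi 10, then 41.9, 47.6 and 50.6 on dpi 42. Total RNA gave 15.8, 16.2 and 17.3 CPM in naive cord, 30.7, 29.7 and 33.2 on dpi 2, 21.1, 25.5 and 25.3 on dpi 10, then 24.9, 22.4 and 25.8 on dpi 42. Ddit3 was therefore highest in OLs at the earliest and the latest time, and the OL libraries of dpi 10 also lay above all naive OL libraries. The OL change was 1.20 ± 0.16, q = 3.41e-06 on dpi 2, 0.41 ± 0.16, q = 0.0721 on dpi 10 and 1.14 ± 0.16, q = 1.3e-05 on dpi 42, and the fall from dpi 2 to dpi 10 was called (-0.79 ± 0.16, q = 0.000773). Set side by side, Atf4 was lower on dpi 42 than on dpi 2 (-1.16 ± 0.13, q = 2.7e-06), and Ddit3 on dpi 42 had -0.06 ± 0.15, q = 0.884 against dpi 2. Exons of Ddit3 overlap those of Mars on the other strand over 4.0% of their length, and whether counting used strand is not given in the sources used here.

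Atf5, an ATF4 relative that is also translated better when eIF2 is phosphorylated, also rose. Its OL libraries held 42.9, 39.6 and 55.3 CPM in naive cord, 197, 224 and 168 on dpi 2, 63.2, 80.8 and 61.2 on dpi 10, then 110.1, 114 and 105 on dpi 42. Total libraries held 32.6, 30.2 and 31.4 CPM in naive cord, 94.3, 120.2 and 90.4 on dpi 2, 61.4, 73.96 and 65.3 on dpi 10, then 60.4, 76.8 and 71.4 on dpi 42. Every SCI library lay above every naive library of its kind. The OL change was 2.10 ± 0.15, q = 1.02e-09 on dpi 2, 0.57 ± 0.14, q = 0.00769 on dpi 10 and 1.25 ± 0.15, q = 2.25e-06 on dpi 42, and total RNA rose by 1.70 ± 0.15, q = 2.39e-08 on dpi 2. The dpi 10 call in OLs was lost without naive OL library 2 (0.47, q = 0.0561), without OL library 2 of dpi 10 (0.44, q = 0.0629) and in a fit of the groups compared (0.60, q = 0.0609).

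Atf3, a stress-induced repressor and activator that follows many kinds of injury, was near the detection limit in naive OL libraries, with 0.462, 0.127 and 0.612 CPM. It reached 11.7, 17.3 and 9.87 CPM on dpi 2, 9.01, 6.70 and 8.26 on dpi 10, then 11.1, 6.83 and 5.09 on dpi 42. Total RNA held more of it in every group, with 1.54, 0.838 and 0.951 CPM in naive cord, 41.4, 45.3 and 41.4 on dpi 2, 41.9, 45.7 and 38.4 on dpi 10, then 12.4, 19.6 and 23.7 on dpi 42. Atf3 thus rose in both kinds of RNA at each time, by 4.98 ± 0.41, q = 7.15e-09 in OLs and 5.26 ± 0.38, q = 1.96e-09 in total RNA on dpi 2. It was depleted in OL relative to total RNA in all 4 groups, with -1.72 ± 0.31, q = 9.23e-05 on dpi 2.

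Cebpb, a C/EBP factor that pairs with ATF4 and also drives inflammatory genes in myeloid cells, went from 0, 0.254 and 2.26 CPM in naive OL libraries to 29.3, 50.9 and 44.6 on dpi 2, 17.5, 13.4 and 16.4 on dpi 10, then 46.8, 30.99 and 26.4 on dpi 42. In total RNA it went from 5.67, 5.22 and 5.10 CPM to 39.9, 51.7 and 40.96 on dpi 2, 30.1, 27.2 and 24.2 on dpi 10, then 27.2, 30.1 and 29.5 on dpi 42. The naive OL values rest on 0, 6 and 59 counts, of which library 3, the one with Schwann cell and astrocyte markers, gave most. The OL change was 5.59 ± 0.59, q = 2.22e-07 on dpi 2, 4.19 ± 0.57, q = 2.21e-05 on dpi 10 and 5.33 ± 0.58, q = 1.14e-06 on dpi 42. The microglia and macrophage markers rose in the same OL libraries, and their part in the rise was not tested. Exons of Cebpb overlap Tmem189 on the other strand over 20.7% of their length.

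Nupr1, a small stress-induced chromatin protein, had 1.64, 0.635 and 2.10 CPM in naive OL libraries, 24.8, 17.2 and 71.8 on dpi 2, 5.67, 13.1 and 9.59 on dpi 10, then 35.1, 29.4 and 19.1 on dpi 42. Its total RNA levels were 2.20, 2.10 and 2.22 CPM in naive cord, 47.8, 57.01 and 32.2 on dpi 2, 31.8, 35.1 and 36.2 on dpi 10, then 29.5, 50.1 and 48.2 on dpi 42. The groups did not overlap with naive in either kind of RNA, although the dpi 2 OL libraries differed among themselves more than those of Atf5. The OL rise was 4.69 ± 0.50, q = 2.79e-07 on dpi 2, 2.69 ± 0.48, q = 0.000453 on dpi 10 and 4.24 ± 0.50, q = 2.41e-06 on dpi 42. Cebpg, a C/EBP partner of ATF4, rose less, by 0.57 ± 0.16, q = 0.00692 on dpi 2, and this call was lost without naive OL library 3 (0.32 ± 0.15, q = 0.108), without OL library 1 or 2 of dpi 2, and without pool 2 of dpi 2.

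Among the 6 kinases and effectors 3 rose in OLs on dpi 2. Trib3, a pseudokinase induced by ATF4 and CHOP, was nearly absent from naive OL libraries, with 3, 0 and 5 counts or 0.126, 0 and 0.191 CPM. It reached 11.5, 13.7 and 1.99 CPM on dpi 2, and later levels were 1.398, 1.90 and 0 on dpi 10, then 0, 0.336 and 1.06 on dpi 42. OL library 3 of dpi 2 thus held far less than the other dpi 2 libraries, yet more than any naive library. The OL change was 6.34 ± 1.38, q = 0.000926 on dpi 2, and on dpi 42 the gene was lower than on dpi 2 (-4.29 ± 1.21, q = 0.0171). In total RNA Trib3 had 0.262, 0.161 and 0.507 CPM in naive cord, 2.63, 3.98 and 2.72 on dpi 2, 1.31, 1.85 and 1.43 on dpi 10, then 0.360, 1.46 and 0.427 on dpi 42, with a rise of 3.31 ± 1.17, q = 0.0305 on dpi 2. The fall to dpi 42 was not called without pool 2 of dpi 2 (-3.85 ± 1.33, q = 0.0617), without OL library 2 of dpi 2 (-3.84, q = 0.0511) or of dpi 42 (-4.06, q = 0.0616) and in a fit of the groups compared (-4.32, q = 0.0622). The total RNA call was lost without pool 2 or total library 2 of dpi 2 and without any 1 naive total library.

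Chac1, which degrades glutathione and is a sensitive ATF4 target, had 0.462, 0.296 and 0.421 CPM in naive OL libraries and 9.86, 7.05 and 1.80 on dpi 2. Later OL levels were 0.583, 0.989 and 0.990 CPM on dpi 10, then 0.664, 0.597 and 2.78 on dpi 42. Total RNA levels were 8.03, 9.83 and 8.65 CPM in naive cord, 11.7, 6.97 and 9.70 on dpi 2, 8.75, 8.07 and 6.57 on dpi 10, then 6.26, 6.30 and 4.30 on dpi 42. Chac1 rose in OLs by 3.97 ± 0.60, q = 1.95e-05 on dpi 2 and 1.76 ± 0.59, q = 0.025 on dpi 42, with a called fall between dpi 2 and dpi 10 (-2.86 ± 0.56, q = 0.000682). The dpi 42 call rests on library 3 of that group, without which the value was 0.60 (q = 0.433), and was also lost without any 1 naive OL library (1.85, 1.55 and 1.77 without library 1, 2 or 3). In total RNA on dpi 2 the change was 0.10 ± 0.50, q = 0.915.

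Ppp1r15a, which encodes the GADD34 subunit that brings a phosphatase to eIF2, had 12.5, 16.5 and 16.3 CPM in naive OL libraries, 27.9, 39.6 and 24.8 on dpi 2, 20.3, 20.01 and 20.2 on dpi 10, then 29.1, 20.98 and 24.9 on dpi 42. Total libraries held 10.9, 12.8 and 11.4 CPM in naive cord, 23.6, 31.7 and 24.7 on dpi 2, 19.5, 16.8 and 19.1 on dpi 10, then 16.99, 19.2 and 17.3 on dpi 42. It rose in both, by 1.02 ± 0.17, q = 7.62e-05 in OLs and 1.19 ± 0.17, q = 1.53e-05 in total RNA on dpi 2, with a difference between the changes of -0.16 ± 0.24, q = 0.771. Eif2ak3 (PERK, the eIF2 kinase of the endoplasmic reticulum) was enriched in naive OLs (1.04 ± 0.16, q = 1.14e-05) and was called lower on dpi 42 (-0.74 ± 0.16, q = 0.00123). Its dpi 2 value of -0.46 ± 0.16, q = 0.0275 did not pass 0.5. That value was -0.63 ± 0.17, q = 0.00594 without naive OL library 3 and -0.54 ± 0.19, q = 0.0312 without pool 2 of dpi 2. On dpi 10 Eif2ak3 was not called, but was lower without naive OL library 3 (-0.55 ± 0.17, q = 0.0297). Sesn2 and Ddit4, both inhibitors of mTORC1, were called in OLs at no time, with log2 changes between -0.40 and 0.38. Without naive OL library 3, however, Sesn2 was higher on dpi 2 (0.61 ± 0.23, q = 0.0417) and on dpi 42 (0.70 ± 0.23, q = 0.0236), and without pool 2 of dpi 2 Ddit4 was lower (-0.72 ± 0.25, q = 0.0335).

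The 12 enzymes split, with 5 higher and 2 lower in OLs on dpi 2. Those higher were Asns, Bcat1, Aldh1l2 and the successive proline synthesis enzymes Aldh18a1 and Pycr1, and those lower were Phgdh and Psat1, the first enzymes of serine synthesis. Asns makes asparagine from aspartate. Its OL libraries had 6.68, 5.63 and 7.61 CPM in naive cord, 23.96, 18.4 and 24.4 on dpi 2, 6.99, 8.14 and 8.41 on dpi 10, then 8.95, 13.6 and 5.48 on dpi 42. Total RNA had 94.6, 95.3 and 94.4 CPM in naive cord, 63.3, 52.5 and 49.97 on dpi 2, 59.5, 52.1 and 52.2 on dpi 10, then 85.1, 57.6 and 53.8 on dpi 42. The gene moved in opposite directions, rising in OLs on dpi 2 (1.74 ± 0.23, q = 4.62e-06) while falling in total RNA (-0.78 ± 0.22, q = 0.00763). The fall in total RNA was not called with library sizes alone in place of TMM (-0.56, q = 0.0642).

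Aldh18a1 had 3.24, 3.51 and 5.93 CPM in naive OL libraries, 15.9, 8.91 and 18.8 on dpi 2, 4.39, 7.46 and 4.91 on dpi 10, then 5.28, 4.97 and 2.90 on dpi 42. In total RNA its level was 21.3, 23.99 and 21.996 CPM in naive cord, 26.5, 25.8 and 30.2 on dpi 2, 19.7, 19.3 and 22.3 on dpi 10, then 20.3, 18.5 and 20.9 on dpi 42. Only on dpi 2 were all OL libraries above the naive ones, with a change of 1.78 ± 0.28, q = 2.92e-05. Pycr1, the next enzyme of the route, had 0.672, 0.338 and 0.382 CPM in naive OL libraries, 11.3, 7.13 and 4.55 on dpi 2, 1.86, 1.90 and 2.74 on dpi 10, then 2.10, 0.187 and 0.939 on dpi 42. Its total RNA level was 1.74, 1.71 and 1.55 CPM in naive cord, 2.603, 1.62 and 3.57 on dpi 2, 4.98, 4.24 and 3.47 on dpi 10, then 1.53, 4.09 and 2.48 on dpi 42. Pycr1 rose in OLs on dpi 2 (4.03 ± 0.65, q = 4.08e-05) and dpi 10 (2.22 ± 0.62, q = 0.0152) and had fallen again by dpi 42 (-2.83 ± 0.60, q = 0.00241 against dpi 2). Its dpi 10 call was lost without naive OL library 2 (2.03, q = 0.0697), without OL library 3 of dpi 10 (2.00, q = 0.0552) and without both libraries of naive pool 3 (2.09, q = 0.0565).

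Bcat1, which starts the breakdown of branched-chain amino acids in the cytosol, had 352, 387 and 323 CPM in naive OL libraries, 756, 879.5 and 421 on dpi 2, 355, 264 and 289.8 on dpi 10, then 235, 341 and 316 on dpi 42. Its total RNA level was 253, 246 and 243 CPM in naive cord, 189, 175 and 165 on dpi 2, 138, 110.1 and 124 on dpi 10, then 211, 161 and 139 on dpi 42. Here too the OL rise on dpi 2 (0.95 ± 0.20, q = 0.000696) met no rise in total RNA, where the change was -0.49 ± 0.20, q = 0.0598 on dpi 2 and a called fall of -0.99 ± 0.20, q = 0.000623 on dpi 10. Aldh1l2, a mitochondrial one-carbon enzyme, had 89.8, 79.7 and 33.97 CPM in naive OL libraries, 191, 147 and 118 on dpi 2, 168, 162 and 129 on dpi 10, then 119, 112 and 159 on dpi 42. Its total RNA level was 15.2, 13.1 and 9.22 CPM in naive cord, 50.9, 31.3 and 41.6 on dpi 2, 31.03, 31.4 and 26.01 on dpi 10, then 25.1, 34.1 and 36.5 on dpi 42. It was higher in both kinds of RNA at each time, with 1.16 ± 0.28, q = 0.00199 in OLs on dpi 2, and the dpi 42 call in OLs was lost without naive OL library 3, whose level was the lowest (0.56 ± 0.24, q = 0.0712), without OL library 3 of dpi 42 (0.69, q = 0.0808) and in a fit of the groups compared (0.98, q = 0.0725). Exons of Aldh1l2 overlap D10Wsu102e on the other strand over 14.1% of their length.

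Of the serine synthesis enzymes Phgdh and Psat1 fell in OLs while Atf4 rose. Per kilobase of exon, Psat1 had the highest mean level of all members in naive OLs (359 CPM per kb), and Phgdh followed Slc6a9 with 156 CPM per kb. Phgdh, the first enzyme of the route, fell from 367, 414 and 384 CPM in naive OL libraries to 235, 236 and 199 on dpi 2, 252, 237 and 213 on dpi 10, then 299, 312 and 272 on dpi 42. Psat1, which follows it, went from 1584, 1699 and 1299 CPM to 1005, 1027 and 863 on dpi 2, 1060.0, 932 and 954 on dpi 10, then 1027, 1029.7 and 1159 on dpi 42. All SCI libraries of both genes lay below all naive OL libraries. The log2 change was -0.80 ± 0.09, q = 9.71e-07 for Phgdh and -0.66 ± 0.11, q = 6.04e-05 for Psat1 on dpi 2, and their dpi 2 changes in total RNA were -0.18 (q = 0.154) and -0.10 (q = 0.54). With library sizes alone the fall of Psat1 on dpi 2 was -0.49 and missed the limit of 0.5. Psph, the last enzyme of the route, had 0.36 ± 0.16, q = 0.077. Shmt2 and Mthfd2, which carry one-carbon units from serine in mitochondria, had 0.02 and 0.10 on dpi 2 and were not called, and Mthfd2 was called lower on dpi 10 (-0.54 ± 0.18, q = 0.0426), a call that was lost in 8 of the alternatives. Gpt2, an alanine aminotransferase, and Cth, which makes cysteine, were called at no time. Their OL changes ran from -0.46 to 0.05 for Gpt2 and from -2.08 to -0.71 for Cth.

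Among the 6 amino acid carriers Slc7a1 rose and Slc6a9 fell in OLs on dpi 2. Slc7a1, the arginine and lysine carrier CAT1, had 3.95, 5.12 and 8.30 CPM in naive OL libraries, 41.2, 33.3 and 29.7 on dpi 2, 13.9, 5.86 and 9.02 on dpi 10, then 7.90, 5.34 and 8.57 on dpi 42. Total RNA held 59.9, 60.4 and 62.1 CPM in naive cord, 61.5, 49.6 and 46.9 on dpi 2, 44.5, 42.04 and 36.5 on dpi 10, then 43.00, 42.5 and 45.97 on dpi 42. The OL rise was 2.58 ± 0.27, q = 1.89e-07 on dpi 2, when the value in total RNA was -0.21 ± 0.25, q = 0.555. On dpi 10 it was not called, but was higher without naive OL library 3 (1.08 ± 0.27, q = 0.00724). All dpi 2 OL libraries lay above all other OL libraries, while total libraries of dpi 2 overlapped the naive ones. Slc6a9, the glycine carrier GLYT1, had the second highest level per kilobase in naive OLs (251 CPM per kb). It went from 1262, 1325 and 1290.4 CPM to 577, 505 and 604 on dpi 2, 844, 825 and 806 on dpi 10, then 662, 764 and 825 on dpi 42 in OL libraries. In total libraries it went from 401, 401 and 334 CPM to 188, 178 and 239 on dpi 2, 210.3, 213 and 239 on dpi 10, then 307, 246 and 240.1 on dpi 42. It was lower at each time in both, with -1.20 ± 0.12, q = 1.23e-07 in OLs and -0.91 ± 0.12, q = 4.69e-06 in total RNA on dpi 2, and 27.8% of its exon length overlaps Ccdc24 on the other strand. Its total RNA call on dpi 42 (-0.52) was lost in 8 alternatives, among them DESeq2 size factors (-0.48) and library sizes alone (-0.39).

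The values of 3 other carriers depended on naive OL library 3. Slc7a5, the light chain of the large neutral amino acid carrier, had 5.76, 9.86 and 75.01 CPM in naive OL libraries and 22.2, 13.5 and 59.2 on dpi 2. The dpi 2 change was 0.06 ± 0.68, q = 1 with all libraries and 1.95 ± 0.58, q = 0.0106 without naive OL library 3. The same step moved Slc7a11, the cystine and glutamate exchanger, from 0.19 ± 0.42, q = 0.788 to 1.00 ± 0.38, q = 0.0403, and Slc3a2, the shared heavy chain, from 0.35 ± 0.14, q = 0.0527 to 0.53 ± 0.11, q = 0.000808. On dpi 42 Slc7a5 was likewise called higher without that library (1.62 ± 0.58, q = 0.0327). OL library 3 of dpi 2, which had nearly as high an astrocyte sum, held the highest dpi 2 level of Slc7a5. Without both of these libraries the dpi 2 change was 1.14 ± 0.51 (q = 0.0886) for Slc7a5, 1.10 ± 0.41 (q = 0.0388) for Slc7a11 and 0.43 ± 0.11 (q = 0.00433) for Slc3a2. Of these Slc7a11 alone was then called. Nupr1, also highest in that dpi 2 library, had 4.14 ± 0.45 (q = 4.1e-07) without both, Cebpg had 0.42 ± 0.15 (q = 0.0381) and Sesn2 0.62 ± 0.25 (q = 0.0597). In total RNA on dpi 2 Slc7a11 (1.42 ± 0.41, q = 0.00857) and Slc3a2 (0.59 ± 0.14, q = 0.00203) rose, Slc7a11 not being called without pool 2 of dpi 2. Slc7a3, the related arginine carrier CAT3, had at most 1.11 CPM in any OL library and was called in no change after SCI.

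Of the secreted factors and the receptor, Gdf15 stood out. Gdf15, a cytokine released by stressed cells, had no count in any of the 6 naive libraries, OL or total. Its OL levels were 3.97, 4.98 and 1.03 CPM on dpi 2, 1.01, 0.761 and 1.79 on dpi 10, then 1.05, 2.05 and 1.57 on dpi 42, and its total RNA levels were 5.65, 7.21 and 2.5997, 6.29, 4.58 and 5.22 and 0.300, 0.830 and 2.93 CPM. Against a floor of 3 counts in each naive library, the OL mean was at least 27.2-fold higher on dpi 2, at least 9.68-fold on dpi 10 and at least 12.7-fold on dpi 42. The total RNA mean was at least 53.3-fold, 55.5-fold and 14-fold higher. All 6 rises were called, with q from 9.19e-06 to 0.000575. Fgf21, a stress hormone, had no count in any of the 12 OL libraries, which allows up to 0.105 to 0.127 CPM, and at most 0.887 CPM in total RNA. Vldlr, a lipoprotein receptor enriched in naive OLs (1.52 ± 0.13, q = 2.5e-09), was called lower in OLs on dpi 42 (-0.67 ± 0.13, q = 0.000418), and without naive OL library 3 it was also lower on dpi 2 (-0.57 ± 0.14, q = 0.00243). Stc2, a secreted glycoprotein, was called in no change after SCI, with at most 3.68 CPM.

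**Figure D2:**
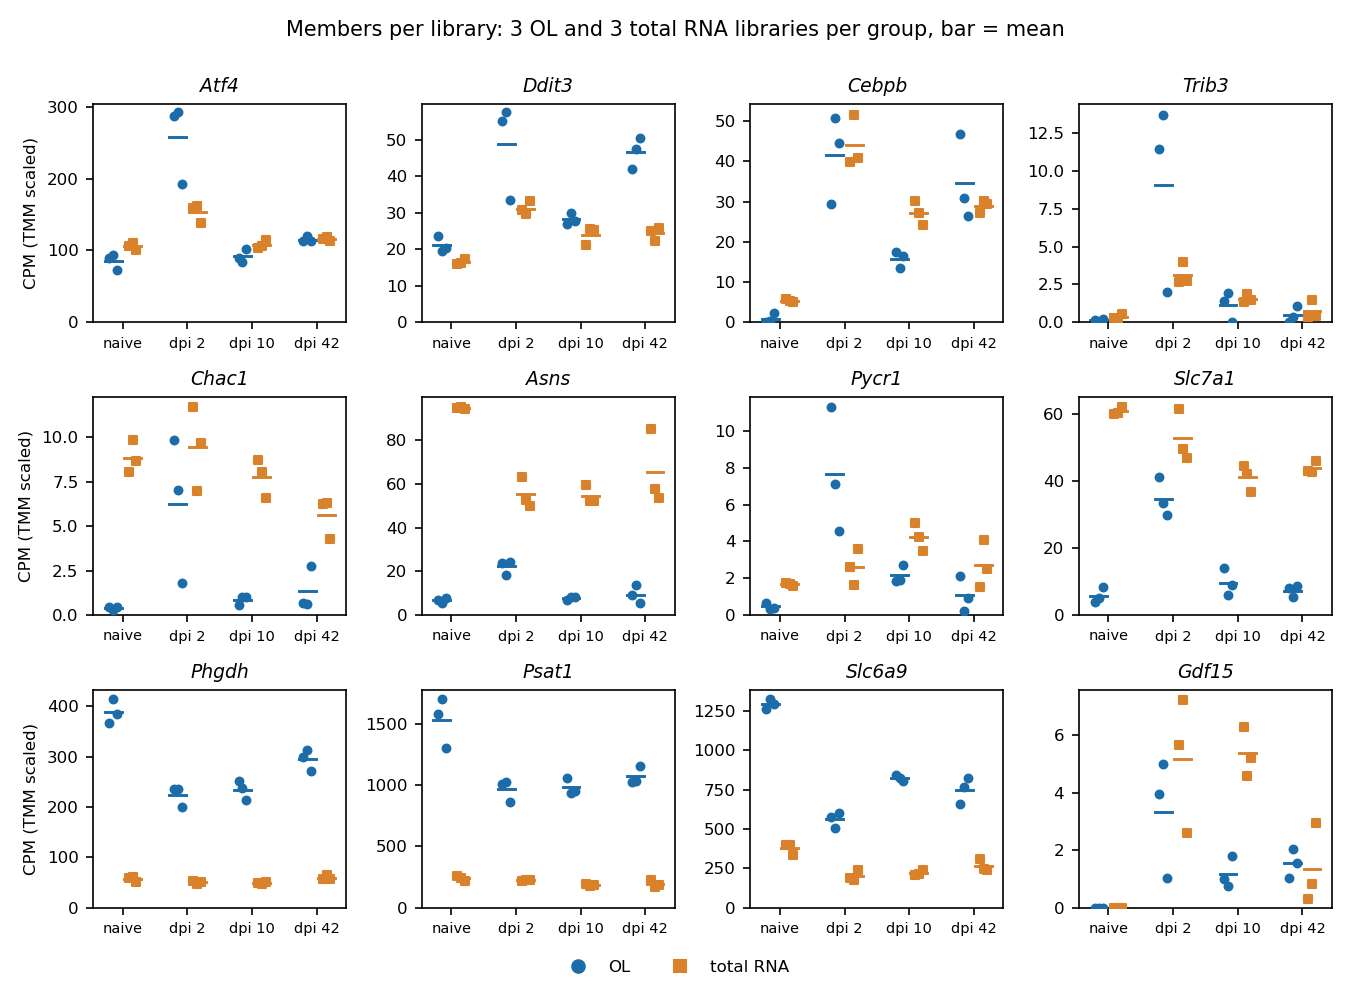
Scaled CPM of 12 members (linear axes from 0) in each OL library (blue circles) and total library (orange squares) of the naive, dpi 2, dpi 10 and dpi 42 groups, with a bar at the mean of 3 libraries. Atf4, Chac1, Asns, Pycr1 and Slc7a1 peak in OL libraries on dpi 2, Cebpb, Ddit3 and Gdf15 stay above naive on dpi 42, and Phgdh, Psat1 and Slc6a9 lie highest in naive OL libraries.

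The decline after dpi 2 was tested within OL libraries. From dpi 2 to dpi 10, 15 of 35 members were lower (42.9%, against 7.92% of all genes) and 1 was higher (2.86%, against 9.55%), which was Slc6a9 (0.55 ± 0.12, q = 0.00175). Without pool 2 of dpi 2 12 members were lower. Lost were the calls of Slc6a9 (0.48 ± 0.13, q = 0.0115), Cebpb (-1.23 ± 0.52, q = 0.109), Ppp1r15a (-0.38 ± 0.16, q = 0.102) and Psph (-0.44 ± 0.17, q = 0.0861). Over all alternatives the falls of Cebpb and Psph were lost in 7 each and that of Ppp1r15a in 6. Those of Mthfd2 and Pycr1 were lost in 4 each and that of Slc3a2 in 3. From dpi 2 to dpi 42, 9 members were lower (25.7%, against 6.43% of all genes) and 0 of 35 were higher (against 7.12%). For that 0, edgeR's quasi-likelihood test had 4 members higher at an unadjusted p under 0.05, and the DESeq2 Wald test called 1 higher, Stc2. Of the 17 members that rose by dpi 2, 12 had fallen by dpi 10 and 9 by dpi 42. Rise and fall share the dpi 2 OL libraries, which favours a fall among members picked for their rise. The share of falls over all genes that rose on dpi 2 was not computed. The set of 9 was Atf4, Atf5, Trib3, Chac1, Asns, Bcat1, Aldh18a1, Pycr1 and Slc7a1. The other 8 had no called fall to dpi 42, among them Ddit3, Cebpb, Nupr1, Atf3 and Gdf15, with log2 values against dpi 2 of -0.06, -0.26, -0.44, -0.75 and -1.10. The summed level of the microglia and macrophage markers was higher on dpi 42 than on dpi 2 in these OL libraries, and its part in the values of these members was not tested. Fitting only the OL groups compared gave 5 members lower on dpi 42 in place of 9, and leaving out OL library 1 or 3 of dpi 10 gave 10 members called between dpi 2 and 10 in place of 16.

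The same changes were tested in total RNA of the whole cord. In it 14 members rose on dpi 2 (40%, against 14.3% of all genes) and 3 fell (8.57%, against 17%). On dpi 10 there were 10 rises (all genes 12.4%) and 3 falls (all genes 13.3%), and on dpi 42 there were 8 rises (all genes 9.15%) and 2 falls (all genes 7.76%). With library sizes alone the dpi 2 counts were 15 rises and 1 fall. On dpi 2, 11 members rose in both kinds of RNA, 6 rose in OLs without a called rise in total RNA (Chac1, Asns, Bcat1, Aldh18a1, Pycr1 and Slc7a1), and 3 rose in total RNA without a called rise in OLs (Shmt2, Slc7a11 and Slc3a2). All 7 transcription factors were among the 11. Of the 6, all but Chac1 were enzymes and carriers. Shares of all genes were not computed for these joint counts, so whether other risen genes divide the same way is not known. Without pool 2 of dpi 2 the total RNA calls of Atf4 (0.50), Cebpg (0.49), Trib3, Slc7a11 and Vldlr (-0.49) were lost, that of Atf4 because its value lay just under the limit of 0.5.

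Whether the change in OLs differed from that in total RNA was tested as an interaction, called differential OL enrichment. On dpi 2 it was higher for 8 of 35 members (22.9%, against 7.57% of all genes) and lower for 3 (8.57%, against 5.68%). Those higher were Slc7a1 (2.79 ± 0.36, q = 2.96e-05), Asns (2.52 ± 0.32, q = 2.37e-05), Chac1 (3.87 ± 0.77, q = 0.00169), Pycr1 (3.40 ± 0.84, q = 0.00851), Cebpb (2.54 ± 0.72, q = 0.0207), Aldh18a1 (1.49 ± 0.38, q = 0.0109), Bcat1 (1.45 ± 0.28, q = 0.00154) and Atf4 (1.06 ± 0.18, q = 0.000453). Those lower were Shmt2 (-0.77 ± 0.20, q = 0.0112), Phgdh (-0.62 ± 0.13, q = 0.00304) and Psat1 (-0.57 ± 0.16, q = 0.0174). The higher side thus held the proline and asparagine enzymes, Bcat1, Chac1, Cebpb, 1 carrier and Atf4 itself. The share on the lower side was near that of all genes. Shmt2 had an OL change of 0.02 and a total RNA change of 0.79. Its call was lost without both libraries of naive pool 3 (-0.58, q = 0.0810), and that of Psat1 without naive total library 3 (-0.51, q = 0.0543). For Trib3 the difference was 3.04 ± 1.68, q = 0.267, and for Atf3, Nupr1 and Ddit3 it was -0.28, 0.30 and 0.28 with q from 0.476 to 0.882. With tissue pools as a replicate block the call of Pycr1 was lost (3.44, q = 0.0507). The call of Cebpb was lost without naive OL library 2 (1.90, q = 0.0898), without OL library 2 of dpi 2 (2.16, q = 0.0586), without pool 2 of dpi 2 (2.49, q = 0.0568) and in a fit of the groups compared (2.54, q = 0.117). That of Aldh18a1 was lost without naive OL library 1 or 2 or OL library 3 of dpi 2 (1.12, 1.16 and 1.05). Without naive OL library 3 Aldh1l2 was added on the lower side (-1.09 ± 0.32, q = 0.0201).

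**Figure D3:**
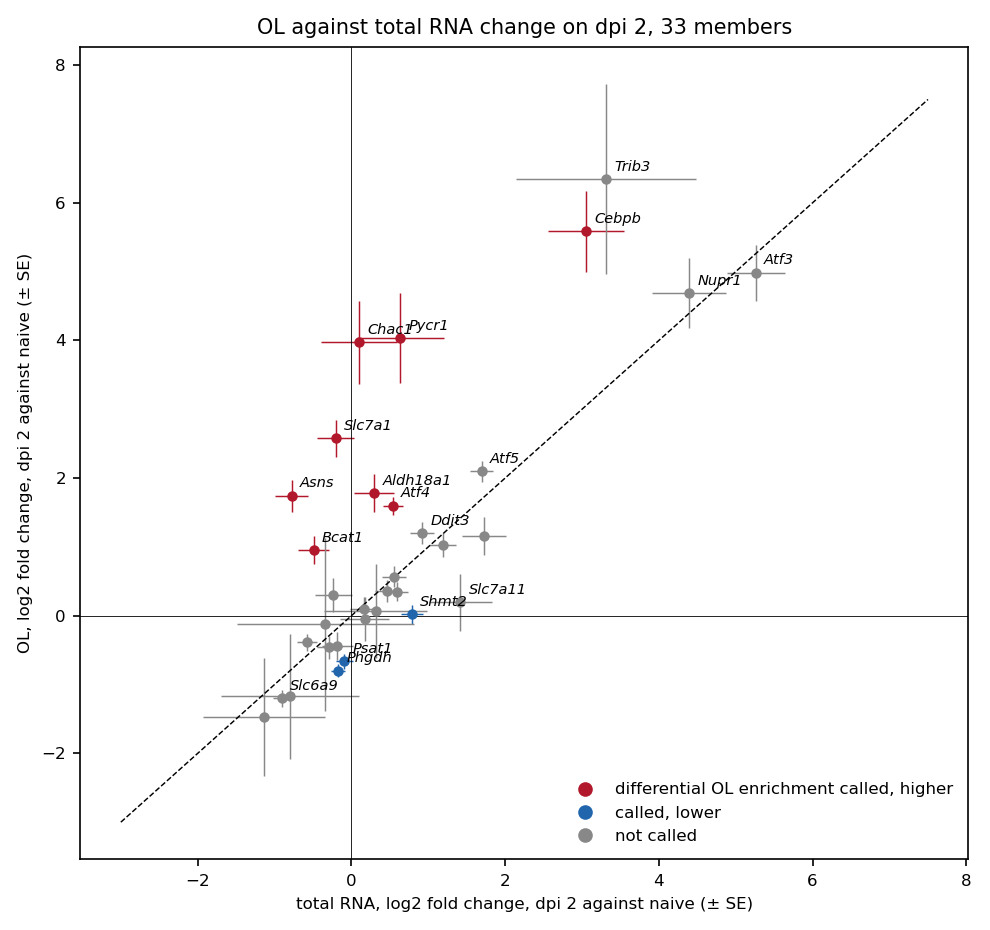
Log2 fold change on dpi 2 against naive in total RNA (horizontal axis) and OL libraries (vertical axis) for 33 members, with SE bars and a dashed line of equal change. Gdf15 and Fgf21 are left out because naive or OL libraries held no count, red points have called higher and blue points called lower differential OL enrichment, and Chac1, Asns, Pycr1 and Slc7a1 sit between -0.78 and 0.64 on the horizontal axis while rising in OLs.

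On dpi 10 the interaction was higher for 1 member (2.86%, against 4.27% of all genes), Slc7a1 (1.29 ± 0.36, q = 0.0309), and lower for 1 (2.86%, against 2.94%), Phgdh (-0.52 ± 0.13, q = 0.0182). On dpi 42 it was higher for 1 (2.86%, against 4.12%), Cebpb (2.89 ± 0.72, q = 0.016), and lower for 0 members (against 3.34% of all genes), with 2 lower by edgeR's quasi-likelihood test at an unadjusted p under 0.05 and 0 called lower by the DESeq2 Wald test. These shares are at or below those of all genes. The call of Slc7a1 on dpi 10 was lost in 11 alternatives, among them library sizes alone (1.20, q = 0.0504) and leaving out OL library 1 of dpi 10 (0.81, q = 0.201). That of Phgdh on dpi 10 was lost without naive total library 3 (-0.46, q = 0.0626), without total library 3 of dpi 10 (-0.49, q = 0.0470) and without both libraries of naive pool 3 (-0.47, q = 0.0769). That of Cebpb on dpi 42 was lost without naive OL library 2 (2.31, q = 0.0609), without OL library 1 of dpi 42 (2.47, q = 0.0575) and in a fit of the groups compared (2.91, q = 0.0988). Without naive OL library 3 each of these days had 4 called members, with Cebpb (4.45 ± 0.57, q = 3.33e-05) and Psat1 added on dpi 10 and Sesn2, Eif2ak3 and Phgdh added on dpi 42.

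OL enrichment, the ratio of OL to total RNA within a group, showed where the members stood before SCI. In naive cord 14 members were enriched in OLs (40%, against 21.7% of all genes) and 10 were depleted (28.6%, against 28.6%), with a median log2 ratio of 0.23 over the members and -0.27 over all genes. With library sizes alone the median over all genes went to -0.78 and the counts to 9 and 13, and the same setting moved the all-gene median of total RNA changes on dpi 2 from -0.10 to 0.09. With DESeq2 size factors the counts in naive cord were 11 enriched and 11 depleted. The shares of all genes called under these 2 settings are not given here. Enriched members were led by Phgdh (2.76 ± 0.10, q = 2.99e-14), Psat1 (2.67 ± 0.12, q = 1.3e-13) and Aldh1l2 (2.44 ± 0.29, q = 2.84e-07), with Slc6a9 (1.77), Psph (1.72) and Shmt2 (1.14) also on the list. Depleted members were led by Chac1 (-4.47 ± 0.61, q = 1.77e-06), Asns (-3.83 ± 0.25, q = 2.78e-11), Slc7a1 (-3.39 ± 0.28, q = 8.76e-10), Cebpb (-2.63 ± 0.56, q = 0.000387) and Aldh18a1 (-2.40 ± 0.28, q = 2.24e-07). In naive cord RNAs for serine synthesis were thus enriched on OL ribosomes, and those for asparagine and proline synthesis and CAT1 were depleted. Slc7a5 was not called (-1.28 ± 0.69, q = 0.123) but was depleted without naive OL library 3 (-3.07 ± 0.61, q = 0.000179), and the depletion of Pycr1 (-1.84 ± 0.61, q = 0.0148) was not called without it (-1.55 ± 0.71, q = 0.0695). Of the 17 members that rose in OLs on dpi 2, 7 had been depleted and 4 enriched in naive OLs. Since these values and the OL changes share the naive OL libraries, no relation between them was computed.

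On dpi 2 the ratios of Chac1, Asns, Slc7a1, Aldh18a1, Pycr1, Cebpb and Sesn2 lay nearer to 0 or above it, while those of Atf3, Slc7a11 and Stc2 did not. On that day 15 members were enriched (42.9%, against 20.5% of all genes) and 7 depleted (20%, against 27.2%). Atf4 was among the enriched (0.75 ± 0.13, q = 4.3e-05, after -0.31 ± 0.13, q = 0.0437 in naive cord), as was Pycr1 (1.56 ± 0.57, q = 0.0261), and Asns (-1.31 ± 0.22, q = 4.29e-05) and Slc7a1 (-0.60 ± 0.25, q = 0.047) were still depleted. The call of Pycr1 was lost in 6 alternatives, among them pool 2 of dpi 2 left out (1.36 ± 0.70, q = 0.124), tissue pools as a replicate block (1.55, q = 0.0985) and library sizes alone (0.98, q = 0.140). The call of Slc7a1 was lost in 5, among them pool 2 of dpi 2 left out (-0.61 ± 0.32, q = 0.126), and that of Atf4 with library sizes alone (0.17, q = 0.203). On dpi 10 there were 10 enriched (28.6%, against 21.2%) and 12 depleted (34.3%, against 27.3%), and on dpi 42 there were 14 enriched (40%, against 21.1%) and 7 depleted (20%, against 27%). Asns had -2.80 and -2.81 on these days, and Slc7a1 -2.10 and -2.59. With library sizes alone the enriched and depleted members numbered 7 and 10 on dpi 2, 7 and 17 on dpi 10, then 8 and 12 on dpi 42. With DESeq2 size factors they numbered 14 and 7, 10 and 12, then 12 and 8. Shares of all genes under these settings are not given here. Phgdh and Psat1 stayed above 2 in every group.

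**Figure D4:**
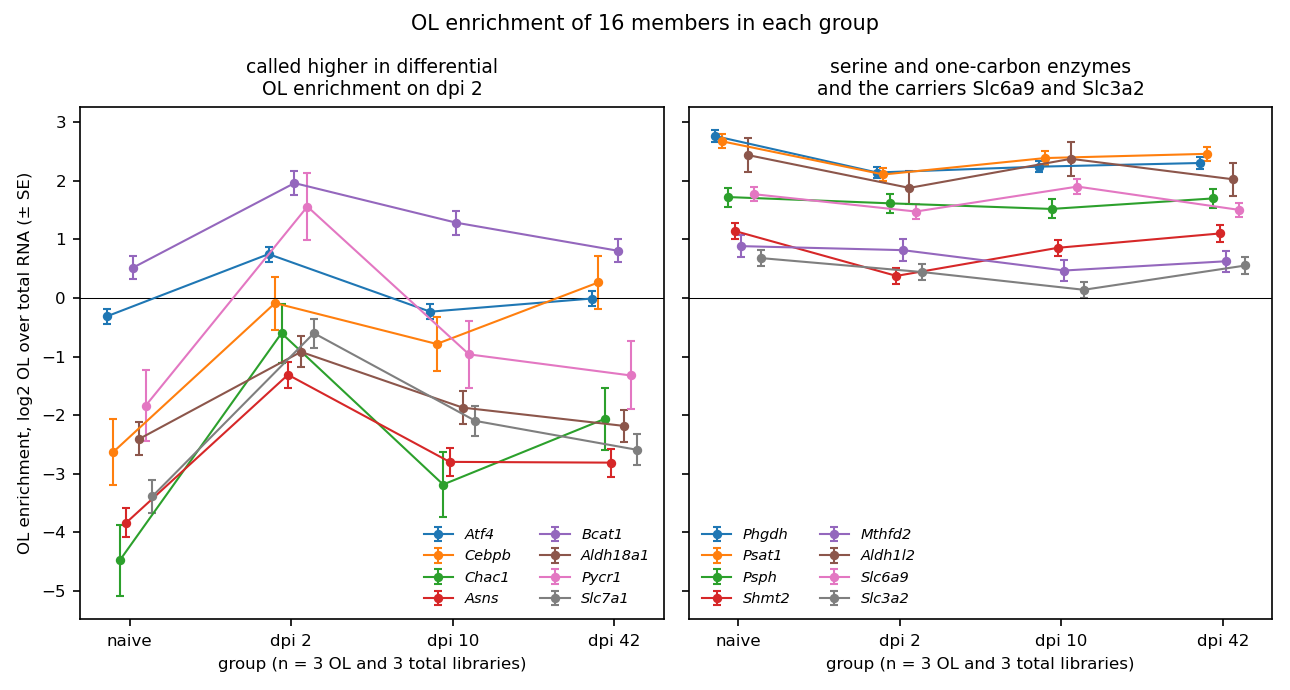
OL enrichment (log2 ratio of OL to total RNA, with SE) in the naive, dpi 2, dpi 10 and dpi 42 groups for 16 members, n = 3 OL and 3 total libraries each. The 8 members with higher differential OL enrichment on dpi 2 (left) peak on dpi 2 except Cebpb, which is higher on dpi 42, and the 6 serine and one-carbon enzymes with Slc6a9 and Slc3a2 (right) stay above 0 in all groups.

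A rise past 1 in OLs that also had either differential OL enrichment past 1 or OL enrichment past 1 in both groups compared is the filter the study used to tie a change to OLs. On dpi 2 it kept 8 members (22.9%, against 2.11% of all tested genes): Atf4, Cebpb, Chac1, Asns, Aldh18a1, Pycr1 and Slc7a1 by the difference, and Aldh1l2 by its enrichment. On dpi 10 it kept Aldh1l2 alone (against 0.693% of all genes), and on dpi 42 Cebpb alone (against 1.16%). Of the members that rose past 1 in OLs on dpi 2, Atf3, Atf5, Ddit3, Nupr1, Ppp1r15a, Trib3 and Gdf15 did not pass it. With tissue pools as a replicate block the difference of Pycr1 was not called (3.44, q = 0.0507). Bcat1, which the study names among its OL genes upregulated on dpi 2, rose by 0.95 here and so fell short of 1.

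Neighbouring stress pathways were compared through lists compiled by hand. The IRE1 and ATF6 arms of the unfolded protein response had 6 of 14 genes higher and 1 lower in OLs on dpi 2, led by the chaperone-related genes Creld2 (1.56 ± 0.16, q = 1.33e-07) and Sdf2l1 (1.93 ± 0.23, q = 1.01e-06), with the sensor Atf6 lower (-0.69 ± 0.13, q = 0.000229) and the disulfide isomerase Pdia4 higher (0.61 ± 0.16, q = 0.00499). On dpi 10, 5 of the 14 were lower in OLs (all genes 5.55%). In total RNA 9 of the 14 were higher on dpi 2 (all genes 14.3%). Cytosolic aminoacyl-tRNA synthetases, which are ATF4 targets in many cells, had 3 of 13 higher in OLs on dpi 2, namely Cars (0.69 ± 0.14, q = 0.000531), Iars (0.67 ± 0.14, q = 0.000713) and Tars (0.52 ± 0.12, q = 0.00171), while Yars did not pass 0.5 (0.44 ± 0.10, q = 0.00183). A further 10 ATF4 targets gave 3 higher and 1 lower, with the translation repressor Eif4ebp1 (3.85 ± 0.65, q = 7e-05) and the bZIP factor Jdp2 (0.65 ± 0.18, q = 0.00815) higher, the glutamine carrier Slc38a2 lower (-0.98 ± 0.22, q = 0.00132) and the autophagy receptor Sqstm1 not called (-0.29 ± 0.08, q = 0.00501). These shares, 42.9%, 23.1% and 30% of the lists, stand beside the 15.9% of all genes called higher in OLs on dpi 2.

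Of 12 genes for the other eIF2 kinases, eIF2 and eIF2B, 1 was higher and 1 lower in OLs on dpi 2, when 15.9% of all genes were higher and 16.4% lower. The same shares of all genes stand beside the counts of the lists that follow. Those were Eif2ak2, the kinase activated by viral RNA (1.25 ± 0.44, q = 0.028), and Eif2s3x, a subunit of eIF2 (-0.57 ± 0.21, q = 0.0341). Eif2ak1, the heme-regulated kinase, had -0.42 ± 0.10, q = 0.0016 and Eif2b2 -0.32 ± 0.14, q = 0.0728. Among 7 mitochondrial stress chaperones and proteases 3 were higher and 1 lower, namely the chaperonins Hspe1 (1.34 ± 0.12, q = 1.94e-08) and Hspd1 (0.65 ± 0.09, q = 9.56e-06) and the protease Clpp (0.52 ± 0.11, q = 0.000655) against Dele1 (-0.99 ± 0.12, q = 2.06e-06), whose product relays mitochondrial stress to the heme-regulated kinase. Among 8 NRF2 targets 4 were higher and 2 lower, with Hmox1 (4.17 ± 0.27, q = 3.26e-10), Srxn1 (1.77 ± 0.11, q = 1.19e-10) and Txnrd1 (0.83 ± 0.11, q = 4.83e-06) higher and Nqo1 lower (-1.13 ± 0.16, q = 9.83e-06). For the lists of this paragraph the changes in total RNA and the differential OL enrichment are not given here. Microglia and macrophage markers rose in the same OL libraries, and their part in these changes was not tested.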

How the data were processed

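RNA from 24 libraries of mouse spinal cord was analysed from the deposited table of raw counts per gene. The authors checked reads with FastQC 0.10.1, mapped them with STAR and counted per gene with HTSeq 0.10.0, per the labels and the study's methods. Strand use in counting is not given in the sources used here. Genes whose counts came to 10 or more in all (17167 of 21965) were fitted with edgeR 4.0.16 (R 4.3.3, limma 3.58.1), using TMM factors, 8 group means and quasi-likelihood F tests for 15 comparisons. Each q is a Benjamini-Hochberg adjusted p over the tested genes. The steps were tested on simulated data, with changes placed only in genes with a mean above 1 CPM in naive OLs. That test does not cover changes of members below this level, such as Trib3, Atf3, Chac1, Pycr1 and Gdf15. It also held no RNA of other cell types that differs between libraries. The members and lists were chosen with earlier results of these data known. Named by rule with values in every library were Atf4, Ddit3 and each member called past 1 in OL change or differential OL enrichment. Other members followed by fold or range. One OL marker gene of the planned list is not reported here. A second entry of the Ddit3 symbol held no count and was left out.

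OL and total libraries of one number came from the same pool. The r of their deviations was 0.024 to 0.137 from naive to dpi 10 and -0.011 to 0.020 on dpi 42, where titles and descriptions number samples differently. Pools are separate pairs of mice, and replicate pairs differed beyond counting noise (median chi-square per gene 2.51 to 21.1). Depth was 25840127 to 32987841 counts, and floors of 3 counts cover counting error only. Alternatives were DESeq2 1.42.0 size factors and Wald test, library sizes alone, other filters, a fit of only the groups compared, a replicate block, and leaving out libraries, those without naive pool 3 and without the OL libraries numbered 3 of naive and dpi 2 being chosen after seeing the data. Promoter sequences are from RefSeq (GRCm38.p6).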

Additional observations from a re-analysis of the deposited data

Results flagged for a closer look

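In 14 cases the change after SCI differed between OL and total RNA by the interaction test. On dpi 2 the log2 difference was 3.87 for Chac1, 3.40 for Pycr1, 2.79 for Slc7a1, 2.54 for Cebpb, 2.52 for Asns, 1.49 for Aldh18a1, 1.45 for Bcat1 and 1.06 for Atf4. It was -0.77 for Shmt2, -0.62 for Phgdh and -0.57 for Psat1. On dpi 10 it was 1.29 for Slc7a1 and -0.52 for Phgdh, and on dpi 42 it was 2.89 for Cebpb.

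OL levels differed between time points by a direct test for 16 members from dpi 2 to dpi 10. The log2 difference was -2.86 for Chac1, -2.00 for Nupr1, -1.86 for Slc7a1, -1.82 for Pycr1, -1.52 for Atf5, -1.50 for Asns, -1.49 for Atf4, -1.40 for Cebpb, -1.38 for Aldh18a1, -1.18 for Bcat1, -0.79 for Ddit3, -0.64 for Mthfd2, -0.60 for Ppp1r15a, -0.57 for Slc3a2, -0.50 for Psph and 0.55 for Slc6a9. From dpi 2 to dpi 42 it was -4.29 for Trib3, -2.83 for Pycr1, -2.26 for Slc7a1, -2.21 for Chac1, -1.73 for Aldh18a1, -1.25 for Asns, -1.20 for Bcat1, -1.16 for Atf4 and -0.84 for Atf5.

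In data outside these comparisons, 4 Y-linked genes had 2414 counts in OL library 2 and 2604 counts in total library 2 of dpi 2, although the mice are labelled female, and at most 13 counts in any of the other libraries.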

How the results depend on the processing

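Of 3077 values of called members under alternatives, 2837 kept their direction and side of the threshold, 238 were no longer past it and 2 reversed: with library sizes alone the OL enrichment of Cebpg was -0.0218 in naive cord and -0.0554 on dpi 2. Counts of called members moved by more than 1.5 times for differential OL enrichment on dpi 10 and 42 and for the comparisons of OL time points, both when single libraries were left out, with the ranges given here, and under other settings. Differential OL enrichment on dpi 10 had 1 call with library sizes alone, and on dpi 42 it had 2 with filterByExpr, 3 with the DESeq2 Wald test and 0 with only the groups compared (the unadjusted and DESeq2 counts stand in the report). OL dpi 42 against dpi 2 had 5 with only the groups compared. The cause was not tested, though that fit has fewer samples. Leaving out 1 library in turn gave 21 to 25 called members for OL change on dpi 2, 8 to 13 on dpi 10 and 11 to 15 on dpi 42. It gave 13 to 17, 11 to 13 and 8 to 12 for total change, 9 to 12, 0 to 4 and 1 to 4 for differential OL enrichment, and 21 to 26, 17 to 22, 20 to 22 and 19 to 21 for OL enrichment from naive to dpi 42. For OL dpi 10 against dpi 2 the range was 10 to 14 and for dpi 42 against dpi 2 it was 8 to 12. With tissue pool as a replicate block the counts were 10, 3 and 1 for differential OL enrichment and 23, 22, 22 and 22 for OL enrichment. The other comparisons are between separate pools, so their block was the replicate number, which links no mice across groups. With it the counts were 20, 11 and 13 for OL change and 17, 13 and 11 for total change. For the comparisons of OL time points they were 15 and 9. Members of few counts, such as Trib3, Chac1, Pycr1, Slc7a3 and Stc2, have the widest SE, and for Fgf21 in OLs depth allows no fold.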
